A study of Mus musculus with 8 samples.

Results

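Lysosome and autophagy genes were examined in mouse embryonic fibroblasts (MEFs) and in MEFs that had received 10 µM of carbidopa, CHIR-99021 or LY-364947. The set held 46 genes, chosen by symbol from the 50578 genes of the count table, and all 46 were among the 15154 genes with enough reads to be tested. It held 3 transcription factors, 6 lysosomal membrane proteins, 8 proteases, 10 glycosidases, lipid hydrolases and helper proteins, 6 subunits of the proton pump, 12 autophagy proteins and 1 tethering protein. RNA-seq had been performed on 2 libraries for each of the 4 groups, 8 in all. The MEFs, which are primary cells of connective tissue, came from midgestation C57BL/6J embryos after removal of head, tail, limbs and internal organs and were used at an early passage, and every group is labelled wild type. Carbidopa is an inhibitor of aromatic-L-amino-acid decarboxylase, CHIR-99021 of the kinase GSK3, and LY-364947 of a TGF-beta receptor. The sample labels spell the TGF-beta receptor inhibitor LY-364747. The labels call the untreated MEFs controls and do not say whether these received a vehicle. They call the treated cells hepatic-like. The 10 hepatocyte markers looked up, among them Alb and Hnf4a, summed to between 0.258 and 1.18 CPM (reads per 1e6 library reads after scaling) in every library, and 4 of the 10 had no read in any library. For these compounds the paper reports rises of Alb and Hnf4a by qRT-PCR, staining for fat and glycogen, and clustering near hepatic progenitor-like cells. Its qRT-PCR values are relative to untreated cells, a measure unlike a level in CPM. The time of treatment before RNA-seq is not given in the sources used here. Nothing in the labels says that the 2 libraries of a group came from separate cultures, so p-values measure only the spread between these libraries, which may be technical.

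Lysosomes are acidic organelles in which proteases, glycosidases and lipid hydrolases break down material delivered by endocytosis and by autophagy. A proton pump, the V-ATPase, keeps them acidic, and membrane proteins carry out transport and signaling. In autophagy, cytoplasmic cargo is enclosed in a membrane that forms under the control of the kinase Ulk1 and of a lipid kinase complex, is decorated with lipid-linked Atg8 proteins, and then fuses with the lysosome. The transcription factors Tfeb, Tfe3 and Mitf bind to promoters of many of these genes at a motif built around CACGTG, and their own activity is largely set by phosphorylation and location in the cell, which RNA-seq does not measure. Fibroblasts are known for taking up and degrading matrix proteins such as collagen in lysosomes.

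With TMM scaling of the libraries, more of the 46 genes fell than rose against MEF under each compound. With library sizes alone that balance turned, as it did for all genes. With carbidopa, 7 genes (15.2%) were higher and 12 (26.1%) lower, where 18% and 19.7% of all tested genes were higher and lower. LY-364947 gave 4 higher (8.7%) and 12 lower (26.1%), beside 13.7% and 17.2% of all genes. CHIR-99021 gave 4 higher (8.7%) and 19 lower (41.3%), beside 18.7% and 20.1% of all genes. Calls are those with an adjusted p under 0.05 in edgeR's quasi-likelihood test with Benjamini-Hochberg adjustment over all genes tested. In the 46 genes the log2 fold changes had a median of -0.03 under carbidopa, -0.18 under LY-364947 and -0.22 under CHIR-99021, beside 0.04, 0.03 and 0.04 for all genes. The 3 comparisons share the MEF libraries and are therefore not independent of each other.

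The balance of rises and falls depended on how libraries were scaled. The TMM factors that set the scale were 0.879 and 0.895 in the MEF libraries and between 1.03 and 1.06 in the treated libraries. The 10 most abundant genes took 10.1% and 10.5% of MEF reads, and between 6.34% and 8.55% of the reads in treated libraries. With library sizes alone, 17 genes were higher and 4 lower under carbidopa, 11 and 5 under LY-364947, and 11 and 10 under CHIR-99021. Of all genes tested, 36.6%, 27.9% and 33.8% were then higher and 12.9%, 12% and 14.6% lower. The turn was therefore shared by all genes and was not particular to these 46. That scaling moved the median of all genes to 0.29, 0.25 and 0.26, and the median of the 46 genes was then 0.22, 0.04 and -0.01. Under both scalings the median of the 46 genes was below that of all genes for LY-364947 and CHIR-99021. For carbidopa the medians lay closer together than the SD of 0.081 between replicates of the set's median, and without the second carbidopa library that of the 46 genes was the higher (0.03 beside 0.02). No called gene changed sign under library sizes alone. Falls no longer called under that scaling were those of Mitf, Lamp2, Ctsd, Gla and 4 V-ATPase genes for carbidopa, of Ctsd, Wipi1 and 5 V-ATPase genes for LY-364947, and of Lamp1, Glb1, Psap, Npc2, Wipi1, Gabarap and 3 V-ATPase genes for CHIR-99021.

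**Figure D1:**
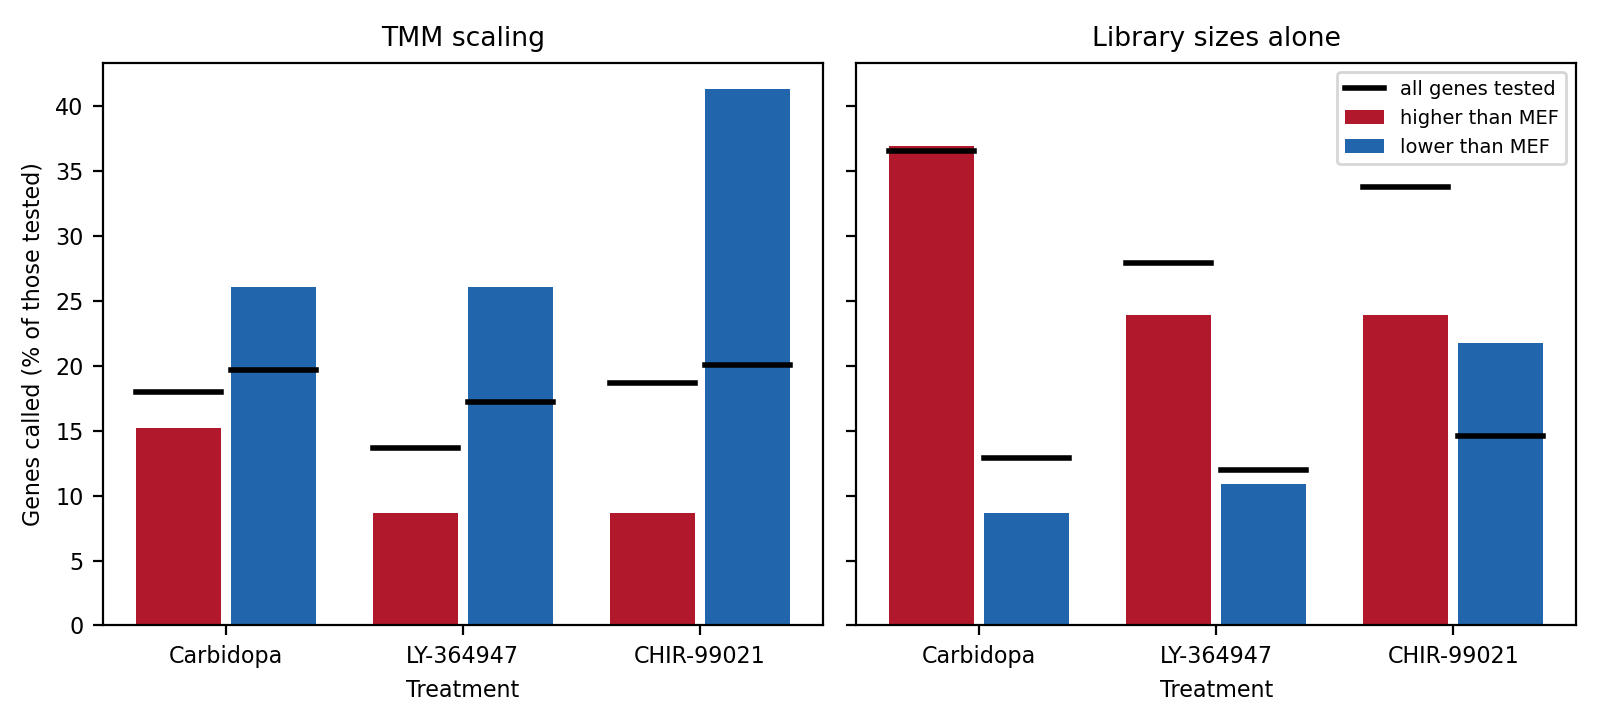
Percent of the 46 lysosome and autophagy genes called higher (red bars) or lower (blue bars) than MEF under each compound, and of all 15154 genes tested (black lines), with TMM scaling on the left and library sizes alone on the right. With TMM scaling the share called lower under CHIR-99021 is 41.3%, beside 20.1% of all genes. With library sizes alone the red bars are taller than the blue ones for all 3 compounds, and the black lines for all genes differ in the same direction.

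**Figure D2:**
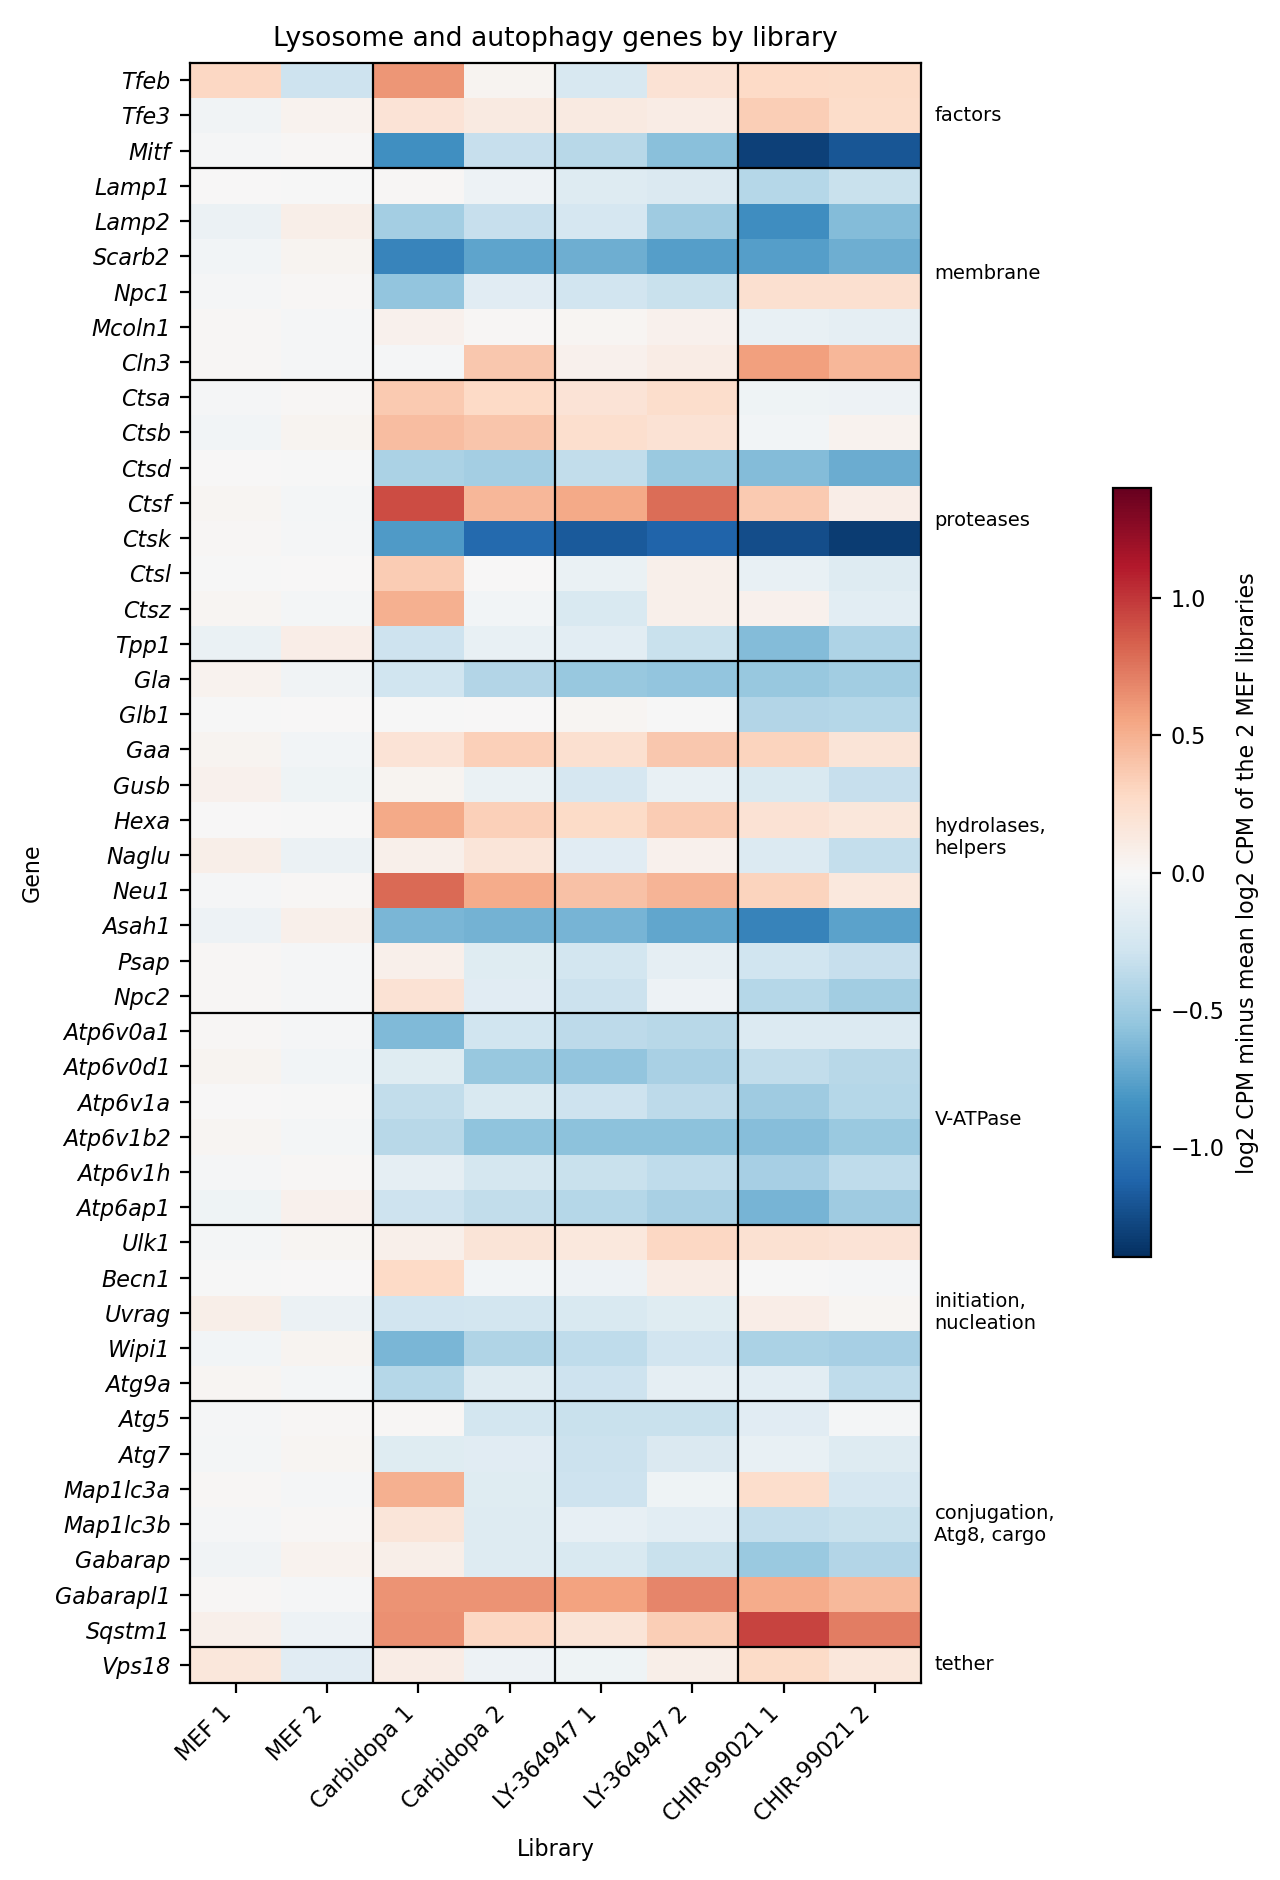
Level of each of the 46 genes (rows, grouped by role) in each of the 8 libraries (columns), as log2 CPM minus the mean log2 CPM of the 2 MEF libraries. Scarb2, Ctsk and Asah1 are blue and Gabarapl1 is red in all 6 treated libraries, and the V-ATPase block is blue in each of them to differing degrees.

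Among the transcription factors, Mitf fell, Tfe3 was somewhat higher under CHIR-99021 and Tfeb passed the test in no comparison. Mitf, on chromosome 6 at 97807052 to 98021349 of GRCm38, stood at 19.6 and 20.2 CPM in MEF, 11.0 and 16.0 under carbidopa, 15.3 and 13.3 under LY-364947, and 8.06 and 8.70 under CHIR-99021. Both MEF libraries were above all treated ones, and the CHIR-99021 libraries were the lowest of all. The log2 fold change was -1.25 ± 0.19 (SE, n = 2) under CHIR-99021 and -0.56 ± 0.18 under carbidopa, with edgeR adjusted p of 0.000495 and 0.0309. With LY-364947 it was -0.48 ± 0.18 and missed the threshold (adjusted p = 0.067). The call under carbidopa was lost with library sizes alone (-0.32), without either MEF library, without the first carbidopa library (-0.32) and in a fit of the compared groups alone, and without the second carbidopa library the value was -0.86. Tfe3 had 50.2 and 53.6 CPM in MEF, and under CHIR-99021 65.8 and 61.7, a log2 fold change of 0.30 ± 0.10 (edgeR adjusted p = 0.0349) that 10 of 15 alternative settings did not call. Its levels under carbidopa (59.2 and 56.8 CPM) and LY-364947 (56.4 and 55.7 CPM) lay between those of MEF and CHIR-99021 without passing the test. Tfeb was rare, between 1.94 and 3.62 CPM in every library, and its MEF libraries (2.90 and 1.94 CPM) spanned most of that range. Its 95% intervals against MEF reached from -0.73 to 1.02 on the log2 scale, so a difference of that size was not detectable here.

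Mitf is also the factor of pigment cells and osteoclasts. Of 6 melanocyte markers, Tyr had no read in any library and Dct 1 read in 1 library, and the 6 summed to between 0.987 and 3.27 CPM. Of 5 osteoclast markers, Dcstamp was at 0 everywhere, and Ocstamp and Calcr had at most 3 reads in any library. Itgb3, which fibroblasts also express, held nearly all reads of that list. The osteoclast sum was 43.7 and 44.8 CPM in MEF and between 10.4 and 17.5 CPM in treated libraries, and of the 2 markers tested Itgb3 was lower under each compound. The melanocyte sum was 3.27 and 3.03 CPM in MEF and between 0.987 and 2.45 CPM in treated libraries. Of the 3 melanocyte markers tested, Mlana was lower under each compound and Pmel higher under carbidopa and LY-364947. The part of these cells in the fall of Mitf was not tested.

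Promoters were looked up in RefSeq (GRCm38.p6) for the CACGTG core that Tfeb, Tfe3 and Mitf bind, in windows from 250 bases before to 50 after a gene's start. A promoter was found for 39 of the 46 genes, and 15 of the 39 (38.5%) held CACGTG, beside 8.09% of 27025 genes with a promoter in that table. The longer TCACGTG, read on either strand, was found in 12 of the 39 (30.8%), beside 4.29% of all genes. CACGTG reads the same on both strands and lies within TCACGTG, so the counts overlap. Of 98 further lysosome and autophagy genes with a promoter, 24.5% held CACGTG and 23.5% TCACGTG. These factors are known to bind promoters of many such genes. A share above that of all genes therefore follows from the choice of genes and is not a result of these data. The 250 bases before the start are printed for 5 of the 15 genes with the motif, picked with their values known: Lamp1, Ctsd, Gla and Atp6v1a, which were called lower under at least 1 compound, and Mcoln1, which was called under none. Scarb2 and Gabarapl1 are printed as genes that changed under each compound and had no match. The other 10 genes with the motif were Cln3, Ctsa, Ctsf, Ctsl, Glb1, Gaa, Naglu, Atp6v0d1, Atg5 and Atg7. Each is written 5′ to 3′ on the gene's strand, with CACGTG and an adjoining T before or A after it in capitals.
Lamp1 (chr8:13158911-13159160, strand +): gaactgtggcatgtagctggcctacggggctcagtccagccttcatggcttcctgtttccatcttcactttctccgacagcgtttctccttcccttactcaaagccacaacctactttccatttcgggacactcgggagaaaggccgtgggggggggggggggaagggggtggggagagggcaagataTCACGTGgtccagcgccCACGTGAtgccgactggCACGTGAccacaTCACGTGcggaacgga
Ctsd (chr7:142387828-142388077, strand -): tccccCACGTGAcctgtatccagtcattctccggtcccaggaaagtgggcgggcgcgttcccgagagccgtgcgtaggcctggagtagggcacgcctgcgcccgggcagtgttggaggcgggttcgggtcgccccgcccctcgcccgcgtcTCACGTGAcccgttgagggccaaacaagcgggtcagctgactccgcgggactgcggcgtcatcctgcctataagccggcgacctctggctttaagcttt
Gla (chrX:134601006-134601255, strand -): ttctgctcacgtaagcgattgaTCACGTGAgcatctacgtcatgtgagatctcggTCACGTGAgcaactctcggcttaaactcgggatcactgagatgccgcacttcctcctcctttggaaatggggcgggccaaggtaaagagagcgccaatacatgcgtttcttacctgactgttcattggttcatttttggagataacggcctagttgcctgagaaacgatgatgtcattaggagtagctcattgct
Atp6v1a (chr16:44139260-44139509, strand -): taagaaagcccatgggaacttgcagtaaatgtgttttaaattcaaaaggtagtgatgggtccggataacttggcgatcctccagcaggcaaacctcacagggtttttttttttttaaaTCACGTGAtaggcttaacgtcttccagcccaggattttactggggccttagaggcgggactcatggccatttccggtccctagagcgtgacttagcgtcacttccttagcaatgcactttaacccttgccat
Mcoln1 (chr8:3500269-3500518, strand +): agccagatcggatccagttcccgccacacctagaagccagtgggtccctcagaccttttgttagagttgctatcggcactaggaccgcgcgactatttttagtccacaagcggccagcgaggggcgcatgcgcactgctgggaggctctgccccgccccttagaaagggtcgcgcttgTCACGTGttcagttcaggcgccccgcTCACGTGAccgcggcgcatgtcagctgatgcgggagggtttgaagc
Scarb2 (chr5:92505658-92505907, strand -): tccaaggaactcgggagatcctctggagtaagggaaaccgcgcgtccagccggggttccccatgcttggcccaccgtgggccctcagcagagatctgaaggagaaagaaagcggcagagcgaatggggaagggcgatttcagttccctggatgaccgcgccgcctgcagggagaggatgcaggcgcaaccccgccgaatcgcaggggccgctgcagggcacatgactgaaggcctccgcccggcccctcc
Gabarapl1 (chr6:129532942-129533191, strand +): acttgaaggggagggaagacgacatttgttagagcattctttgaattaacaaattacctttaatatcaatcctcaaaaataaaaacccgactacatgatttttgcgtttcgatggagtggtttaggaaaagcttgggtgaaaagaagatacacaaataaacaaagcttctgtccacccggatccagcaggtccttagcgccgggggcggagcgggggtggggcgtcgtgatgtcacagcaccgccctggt

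Lamp1 held 4 copies shortly before its start, whereas Ctsd, Gla and Mcoln1 held 2 and Atp6v1a 1. Against MEF, 3 of the 15 genes with CACGTG were lower under carbidopa, 4 under LY-364947 and 6 under CHIR-99021, beside 19.7%, 17.2% and 20.1% of all genes tested. Of the 24 genes with a promoter and no CACGTG, 7, 5 and 10 were lower. Rises numbered 2, 1 and 1 of the 15, and 4, 3 and 3 of the 24, beside 18%, 13.7% and 18.7% of all genes. Mcoln1, the lysosomal calcium channel and a known target of Tfeb, stayed between 71.4 and 80.9 CPM in all 8 libraries and was not called against MEF under any compound. No match says only that these letters are not in this window.

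**Figure D3:**
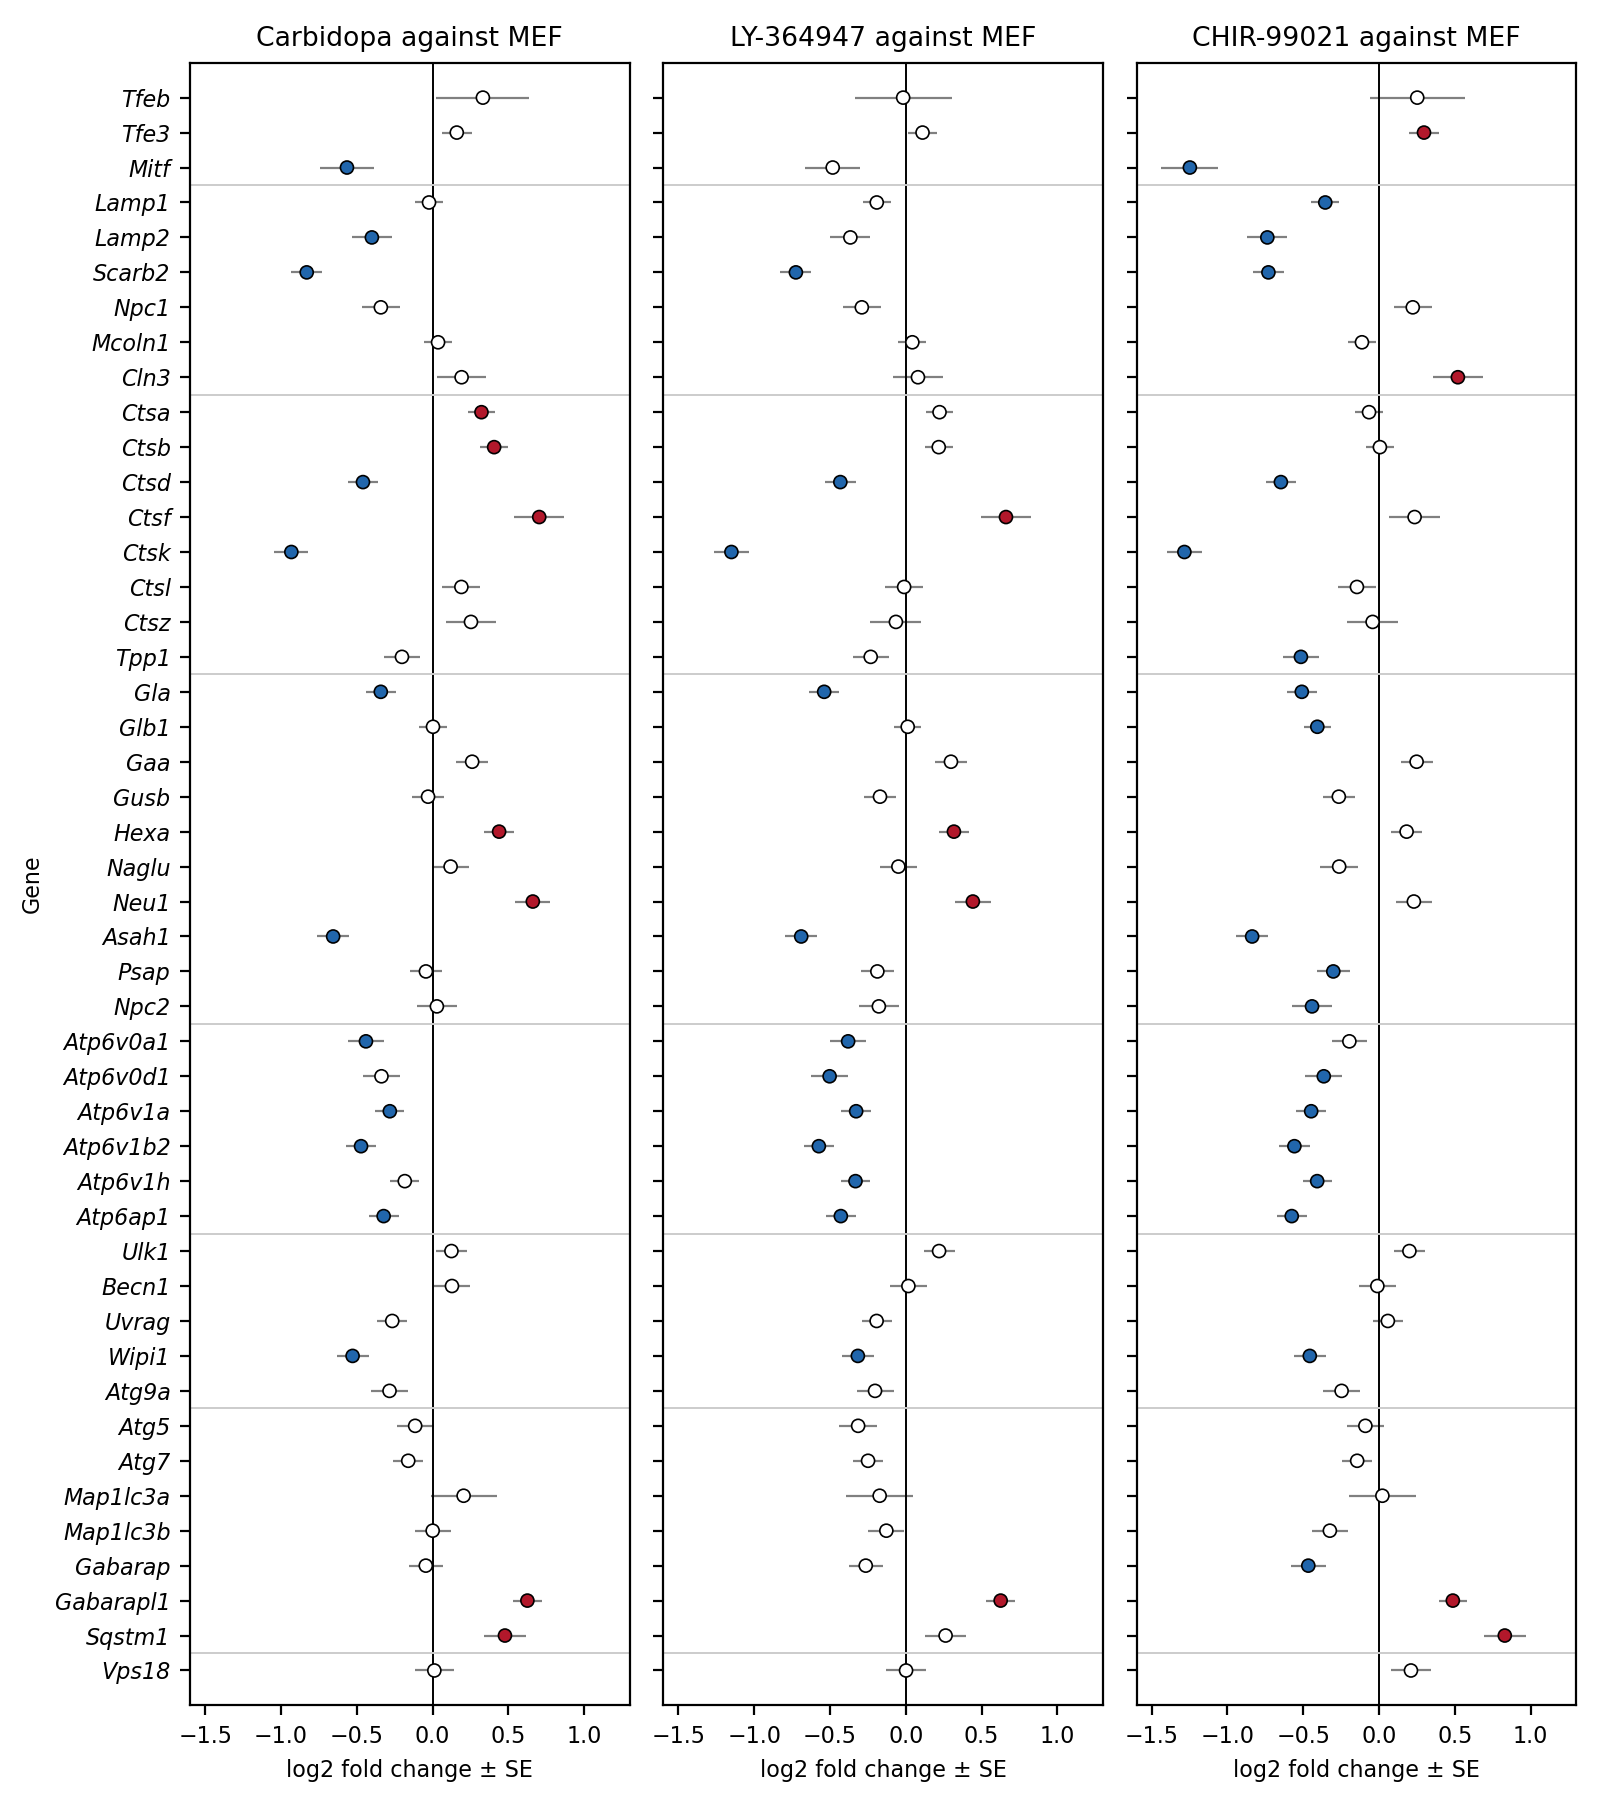
Log2 fold change of each of the 46 genes against MEF for carbidopa, LY-364947 and CHIR-99021, with bars of 1 SE from 2 libraries a group. Filled circles (red higher, blue lower) passed an adjusted p of 0.05 in edgeR's quasi-likelihood test. Ctsk lies farthest to the left in each panel, at -0.93, -1.15 and -1.28.

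Of the 6 membrane proteins, 2 were lower under carbidopa, 1 under LY-364947 and 3 under CHIR-99021, and 1, Cln3, was higher under CHIR-99021. Of all genes tested, 19.7%, 17.2% and 20.1% were lower, and 18.7% were higher under CHIR-99021. Scarb2, the receptor that carries glucocerebrosidase to the lysosome (chromosome 5, 92441314 to 92506833), had 381 and 403 CPM in MEF. It had 207 and 234 CPM under carbidopa, 244 and 230 under LY-364947, and 229 and 244 under CHIR-99021. Every treated library was far below both MEF libraries, and the 3 treatments overlapped. Its log2 fold changes were -0.83 ± 0.10, -0.72 ± 0.10 and -0.73 ± 0.10, with edgeR adjusted p of 0.000133, 0.000356 and 0.000311. Lamp2, a major glycoprotein of the lysosomal membrane needed for fusion with autophagosomes, had 1615 and 1819 CPM in MEF, 1229 and 1373 under carbidopa, 1453 and 1213 under LY-364947, and 937 and 1124 under CHIR-99021. The CHIR-99021 libraries were the lowest, and MEF was above all others. The fall was -0.74 ± 0.13 under CHIR-99021 (edgeR adjusted p = 0.00156) and -0.40 ± 0.13 under carbidopa (adjusted p = 0.0363). The carbidopa call was lost without either MEF library, without the first carbidopa library, in a fit of the compared groups alone and with library sizes alone. Lamp1, its more abundant relative, fell under CHIR-99021 (-0.35 ± 0.09), a call that was lost with library sizes alone (-0.14) and without either MEF library or the first CHIR-99021 library. Cln3, a membrane protein mutated in juvenile Batten disease, was rare and rose from 10.3 and 10.1 CPM to 15.2 and 14.2 CPM under CHIR-99021 (0.52 ± 0.16, edgeR adjusted p = 0.028), and 6.0% of its 75-base words occur in another gene, Apobr on the other strand. The Cln3 call was lost in 6 of 15 alternative settings, among them DESeq2 and leaving out either MEF or either CHIR-99021 library.

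The proteases moved in both directions. Ctsk, a cathepsin that cleaves collagen (chromosome 3, 95499256 to 95509362), had the largest estimated fall of the 46 genes under each compound. Ctsk stood at 409 and 397 CPM in MEF, 233 and 190 under carbidopa, 178 and 185 under LY-364947, and 170 and 161 under CHIR-99021. The 2 MEF libraries were close to each other and well above all 6 treated libraries. The fall was 1.91-fold under carbidopa, 2.22-fold under LY-364947 and 2.44-fold under CHIR-99021, with log2 fold changes of -0.93 ± 0.11, -1.15 ± 0.11 and -1.28 ± 0.11 and edgeR adjusted p of 0.000117, 2.77e-05 and 1.22e-05. Ctsd, the aspartic protease of lysosomes, had 3015 CPM in each MEF library, 2223 and 2164 under carbidopa, 2375 and 2096 under LY-364947, and 1981 and 1870 under CHIR-99021. The log2 fold changes of -0.46, -0.43 and -0.65 (SE 0.10 each) all passed the test, although 31.3% of its 75-base words also occur in the overlapping gene Gm49369, so the counting could split its reads. Tpp1, a tripeptidyl peptidase, was called lower under CHIR-99021 (-0.52 ± 0.12), and its values under carbidopa and LY-364947 were -0.20 ± 0.12 and -0.23 ± 0.12, which missed the threshold. The Ctsd call under LY-364947 was lost without either MEF library or the second LY-364947 library, and the Tpp1 call without the second MEF library or the first CHIR-99021 library.

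Other cathepsins rose. Ctsf, a cysteine protease at low level, went from 30.9 and 29.8 CPM in MEF to 57.0 and 41.9 under carbidopa and 43.8 and 52.2 under LY-364947. All 4 of these treated libraries were above MEF, but the 2 carbidopa libraries lay far apart. The log2 fold changes were 0.70 ± 0.16 and 0.66 ± 0.16 (edgeR adjusted p of 0.0075 and 0.0114), and under CHIR-99021, at 39.2 and 32.3 CPM, it was 0.24 ± 0.17 and not called. Without the first carbidopa library the Ctsf value under carbidopa was 0.47, and that call was lost without the second MEF library. The LY-364947 call was lost without either MEF library or the second LY-364947 library. Ctsb and Ctsa, the latter a carboxypeptidase that protects other lysosomal enzymes, were higher under carbidopa by 0.41 ± 0.09 and 0.32 ± 0.09. Both calls were lost without either MEF library. With LY-364947 they differed from MEF by 0.22 each and were not called. Parts of both genes overlap genes on the other strand (Ctsb with Fdft1, Ctsa with Neurl2 and Pltp), whose reads cannot be told apart without strand. Ctsl and Ctsz passed the test in none of these comparisons.

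Among the 10 glycosidases, lipid hydrolases and helpers, 2 were higher and 2 lower under carbidopa, as many under LY-364947, and 5 were lower and none higher under CHIR-99021. Of all genes tested, 18%, 13.7% and 18.7% were higher and 19.7%, 17.2% and 20.1% lower. With library sizes alone, 2 of the 10 were lower and 3 higher under CHIR-99021, beside 14.6% and 33.8% of all genes. Asah1, acid ceramidase (chromosome 8, 41340197 to 41374773), had 1348 and 1476 CPM in MEF, 903 and 890 under carbidopa, 899 and 851 under LY-364947, and 739 and 841 under CHIR-99021. No treated library reached the MEF libraries. The log2 fold changes were -0.66 ± 0.10, -0.69 ± 0.10 and -0.84 ± 0.10, with edgeR adjusted p of 0.000751, 0.000571 and 0.000137. Gla, alpha-galactosidase A, whose promoter held 2 copies of the motif, went from 78.4 and 73.0 CPM in MEF to 62.5 and 57.0 under carbidopa, 52.4 and 51.8 under LY-364947, and 52.3 and 54.0 under CHIR-99021. These were log2 fold changes of -0.34 ± 0.10, -0.54 ± 0.10 and -0.51 ± 0.10, and the first was lost with library sizes alone (-0.09). Glb1, beta-galactosidase, was at 119 and 120 CPM in MEF, 119 and 120.3 under carbidopa and 122 and 119 under LY-364947, but at 89.8 and 90.4 under CHIR-99021. Its 6 libraries outside CHIR-99021 were nearly level, and the CHIR-99021 fall against MEF was -0.41 ± 0.09 (edgeR adjusted p = 0.0051). Psap, the precursor of the saposins that help lipid hydrolases, and Npc2, a soluble cholesterol carrier, were also lower under CHIR-99021, by -0.30 ± 0.11 and -0.44 ± 0.13, and both calls were lost with library sizes alone and without any 1 of the MEF or CHIR-99021 libraries. The first Gla call was also lost without either MEF library, and the Glb1 call without the second MEF library or the first CHIR-99021 library.

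Neu1, a sialidase, and Hexa, a subunit of beta-hexosaminidase, were the glycosidases that rose. Neu1 had 52.7 and 54.3 CPM in MEF, 92.5 and 76.8 under carbidopa, 71.3 and 74.2 under LY-364947, and 66.2 and 59.4 under CHIR-99021. All treated libraries were above MEF. The log2 fold change was 0.66 ± 0.12 under carbidopa and 0.44 ± 0.12 under LY-364947 (edgeR adjusted p of 0.00144 and 0.0151), and 0.23 ± 0.12 under CHIR-99021 was not called. The LY-364947 call was lost without any 1 of the MEF or LY-364947 libraries. Hexa was higher by 0.44 ± 0.10 under carbidopa and 0.32 ± 0.10 under LY-364947, the former lost without either MEF library and the latter in 7 of 15 alternative settings, among them leaving out any 1 of the MEF, LY-364947 or CHIR-99021 libraries. Of the 75-base words of Hexa, 9.4% occur in Tmem202 on the other strand. Gaa, Gusb and Naglu were not called in any comparison with MEF, and their log2 fold changes lay between -0.27 and 0.30.

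Most V-ATPase genes were lower with TMM scaling. Of the 6, 4 were lower under carbidopa, all 6 under LY-364947 and 5 under CHIR-99021, and none was higher. The median log2 fold changes were -0.33, -0.40 and -0.43. With library sizes alone the medians were -0.08, -0.18 and -0.21. Of the 6, 0, 1 and 2 were then called lower, beside 12.9%, 12% and 14.6% of all genes. The number called thus depended on the scaling while the sign of the median did not. With that scaling the V-ATPase no longer stood out by its count of falls, since 1, 1 and 3 of the 8 proteases were lower. Its median was still the lowest of all roles in each comparison, beside 0.47, 0.19 and 0.11 for the proteases. Atp6v1b2, the B2 subunit of the part that splits ATP, had 140.3 and 134 CPM in MEF, 105 and 93.2 under carbidopa, 92.3 and 92.1 under LY-364947, and 90.6 and 95.8 under CHIR-99021. No treated library reached MEF. Its log2 fold changes were -0.47 ± 0.10, -0.57 ± 0.10 and -0.56 ± 0.10 (edgeR adjusted p of 0.00431, 0.00141 and 0.0015), and the calls under LY-364947 and CHIR-99021 stood in all 15 alternative settings. Atp6ap1, an accessory subunit, had 635 and 692 CPM in MEF, 540 and 521 under carbidopa, 503 and 483 under LY-364947, and 422 and 468 under CHIR-99021. MEF was highest and CHIR-99021 lowest, and the log2 fold changes were -0.32, -0.43 and -0.58 (SE 0.10 each). Atp6v0d1, of the part that sits in the membrane, was at 208 and 196 CPM in MEF, and under LY-364947 at 137 and 148 it fell by 0.50 ± 0.12 on the log2 scale (edgeR adjusted p = 0.0106). That call was lost without the first MEF or the first LY-364947 library, the Atp6v1b2 call under carbidopa without the first MEF library, and the Atp6ap1 calls under carbidopa and LY-364947 without the second MEF library and some others. The catalytic subunit Atp6v1a, the subunit Atp6v1h and the membrane subunit Atp6v0a1 had log2 fold changes from -0.45 to -0.18 in the 3 comparisons. Of 15 alternative settings, the carbidopa calls of Atp6v1a and Atp6v0a1 stood in 4 and 11. The LY-364947 calls of Atp6v1a, Atp6v0a1 and Atp6v1h stood in 10, 8 and 9. The CHIR-99021 calls of Atp6v1a, Atp6v1h and Atp6v0d1 stood in 13, 12 and 8. A list of 10 further V-ATPase genes did not share this count, with 1, 2 and 3 of 10 lower and none higher, beside 19.7%, 17.2% and 20.1% of all genes lower. Their median log2 fold changes with TMM scaling were -0.02, -0.19 and -0.18, and under LY-364947 all 10 values were negative.

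Of the 12 autophagy genes, 2 were higher and 1 lower under carbidopa, 1 and 1 under LY-364947, and 2 and 2 under CHIR-99021. Of all genes tested, 18%, 13.7% and 18.7% were higher and 19.7%, 17.2% and 20.1% lower. Gabarapl1, an Atg8 family protein (chromosome 6, 129533160 to 129542346), had 163 and 159 CPM in MEF, 248 and 249 under carbidopa, 238 and 258 under LY-364947, and 231 and 220 under CHIR-99021. The 6 treated libraries were all above MEF and close together. The log2 fold changes were 0.63 ± 0.09, 0.63 ± 0.09 and 0.49 ± 0.09, with edgeR adjusted p of 0.000522, 0.000554 and 0.0024. Of its 75-base words, 20.5% occur in 1700101I11Rik on the other strand, so part of the reads could belong to that gene. Of the other Atg8 genes among the 46, Gabarap fell under CHIR-99021 (-0.47 ± 0.11, edgeR adjusted p = 0.00853), from 550.0 and 587 CPM in MEF to 395 and 428, a call lost without the second MEF library, the first CHIR-99021 library or with library sizes alone, and Map1lc3a and Map1lc3b were not called. Gabarapl2, a further Atg8 gene outside the 46 that was named after its values were seen, had 58.5 and 58.6 CPM in MEF, 103 and 80.5 under carbidopa, 79.5 and 80.7 under LY-364947, and 72.8 and 84.0 under CHIR-99021. Every treated library was above MEF, as for Gabarapl1, and the log2 fold changes were 0.65, 0.45 and 0.42 (SE 0.13 each, edgeR adjusted p of 0.00325, 0.0236 and 0.027).

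Sqstm1, the cargo receptor p62 and also a known target of stress-responsive transcription factors, had 408 and 370.2 CPM in MEF, 607 and 476 under carbidopa, 439 and 495 under LY-364947, and 747 and 636 under CHIR-99021. CHIR-99021 was highest and MEF lowest, with the replicates of each treated group well apart. The log2 fold change was 0.83 ± 0.14 under CHIR-99021 (edgeR adjusted p = 0.000965) and 0.48 ± 0.14 under carbidopa (adjusted p = 0.0208), the latter lost without either MEF library or without the first carbidopa library (0.29). With LY-364947 it was 0.26 ± 0.14 and not called. Of the 75-base words of Sqstm1, 14.6% occur in Mrnip on the other strand. Wipi1, which reads the lipid made at the forming autophagosome, had 96.2 and 102 CPM in MEF, 63.5 and 73.9 under carbidopa, 77.1 and 82.0 under LY-364947, and 72.6 and 71.7 under CHIR-99021. All treated libraries were below MEF. The falls were -0.53 ± 0.11, -0.32 ± 0.11 and -0.46 ± 0.11 on the log2 scale (edgeR adjusted p of 0.00325, 0.0446 and 0.0067), and the LY-364947 call was lost in 10 of 15 alternative settings, among them leaving out any 1 of the MEF, LY-364947 or CHIR-99021 libraries. The CHIR-99021 call was lost without the second MEF or the first CHIR-99021 library. Ulk1, Becn1, Uvrag, Atg9a, Atg5 and Atg7, which start autophagosomes or attach lipid to Atg8 proteins, and the tethering protein Vps18 were not called under any compound. Their log2 fold changes against MEF lay between -0.31 and 0.22.

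**Figure D4:**
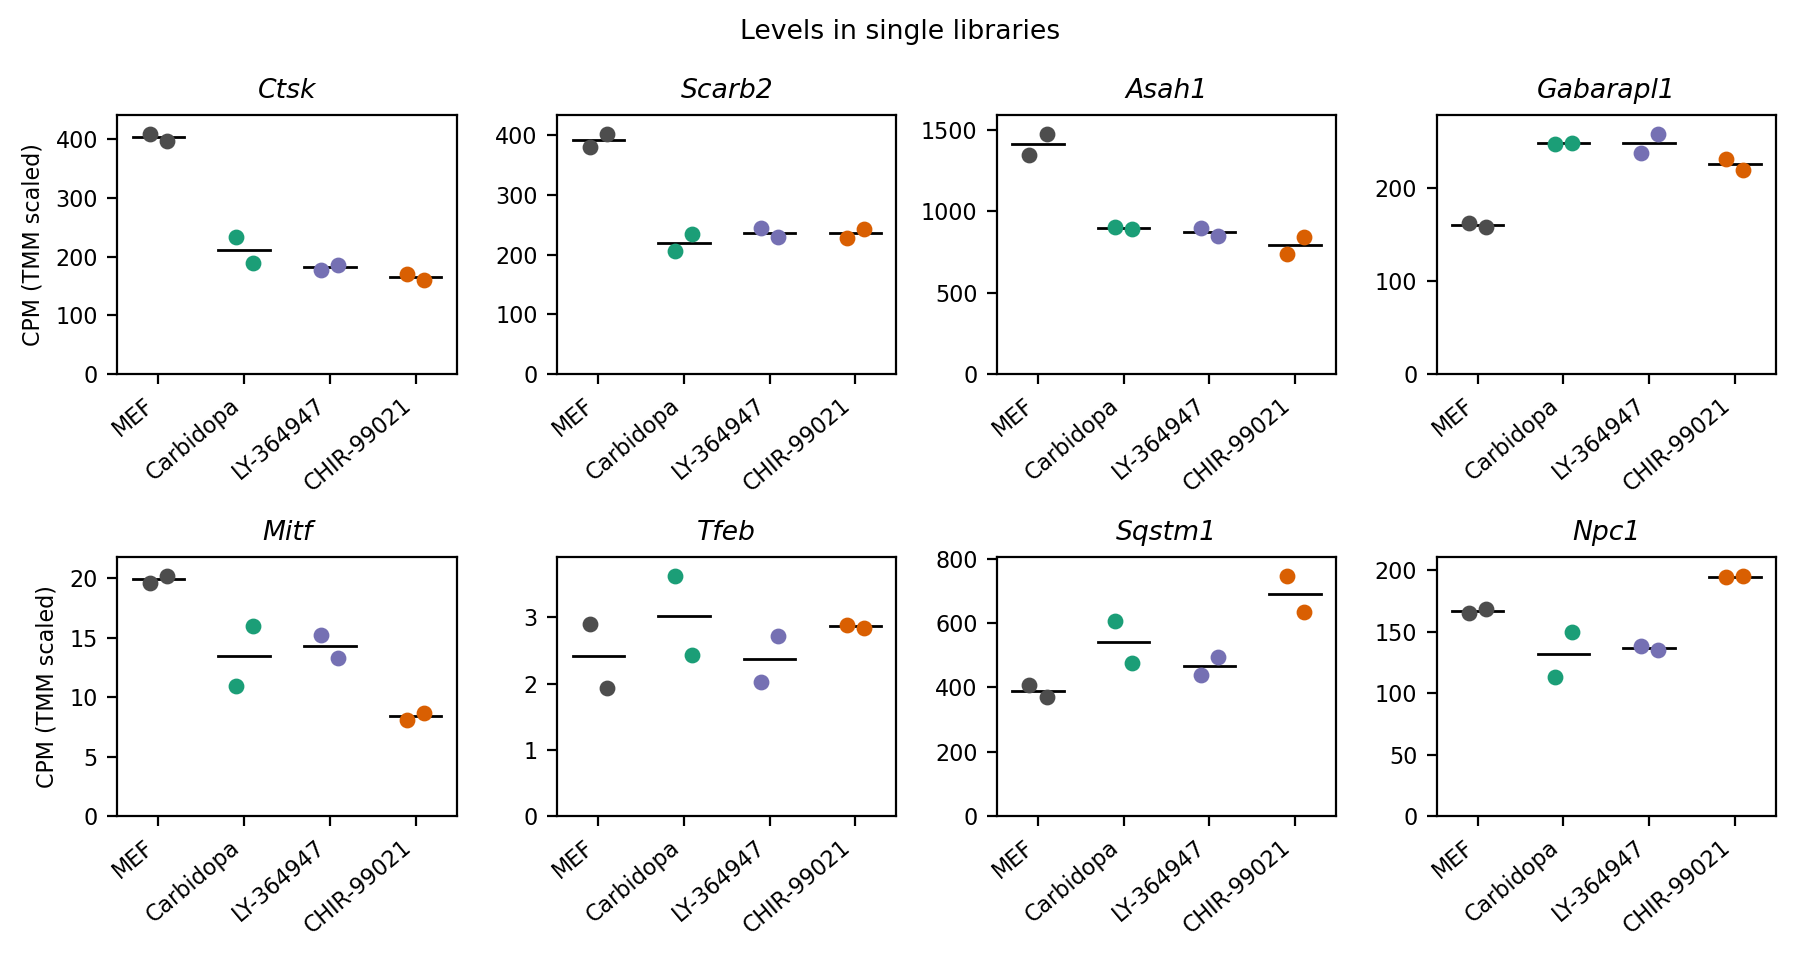
CPM of 8 of the genes in each library (points) with the group mean (lines), on linear axes that start at 0. Ctsk, Scarb2 and Asah1 are lower and Gabarapl1 is higher than MEF in every treated library, Mitf is lowest and Sqstm1 and Npc1 are highest under CHIR-99021, and Tfeb overlaps between groups.

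The differences called between compounds were between CHIR-99021 and the others, and against carbidopa most of them were falls. Against carbidopa, 1 gene (2.17%) was higher and 8 (17.4%) were lower under CHIR-99021, beside 6.62% and 8.08% of all genes. Against LY-364947, 2 genes were higher and 2 lower (4.35% each), beside 6.45% and 7.69% of all genes. Mitf differed most, at -0.68 ± 0.19 against carbidopa and -0.77 ± 0.19 against LY-364947, with edgeR adjusted p of 0.0357 and 0.0229. Npc1, the membrane protein that exports cholesterol from lysosomes, had 165 and 169 CPM in MEF, 113 and 150.0 under carbidopa, 138 and 135 under LY-364947, and 194 and 195 under CHIR-99021. Its CHIR-99021 libraries were the highest and the other compounds lay below MEF, and no difference from MEF passed the test. Npc1 was higher under CHIR-99021 by 0.56 ± 0.13 against carbidopa and 0.51 ± 0.13 against LY-364947 (edgeR adjusted p of 0.0148 and 0.023). Its partner Npc2 was lower under CHIR-99021, by -0.47 ± 0.13 against carbidopa (adjusted p = 0.0388). Neu1, Gabarap, Glb1, Ctsa, Ctsb and Lamp1 were the other genes lower than under carbidopa, with log2 fold changes from -0.43 to -0.33. Against LY-364947, Sqstm1 was higher (0.57 ± 0.14, edgeR adjusted p = 0.0217) and Glb1 lower (-0.42 ± 0.09, adjusted p = 0.0121). Most of these calls were lost when a library was left out. Without either CHIR-99021 library, no gene was called against carbidopa, and without the first CHIR-99021 library or either LY-364947 library none was called against LY-364947.

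No difference between LY-364947 and carbidopa was detected in these genes. None of the 46 was called in edgeR's test or by DESeq2, and none had an unadjusted p under 0.05, where 0.0132% of all genes were called, 1367 genes had such a p and DESeq2 called 15 genes. The log2 differences, LY-364947 minus carbidopa, ran from -0.38 (Map1lc3a) to 0.21 (Wipi1). The 95% interval of the difference was -0.47 to 0.03 for Ctsk, -0.12 to 0.33 for Scarb2, -0.21 to 0.21 for Gabarapl1 and -0.32 to 0.48 for Mitf. The second carbidopa library decided this count, since without it 3 genes were higher and 12 lower under LY-364947, and 3816 genes were called in all. The 2 carbidopa libraries differed more than any other pair, with a chi-square per degree of freedom of 34.6 beside 4.31 to 9.21 in the other groups.

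Per kilobase of exon, levels differed widely within most roles, and the 3 transcription factors were among the 4 lowest genes of the set. In MEF, Ctsd had the highest level at 1282 CPM per kilobase, followed by Lamp1 (865), Psap (540), Asah1 (417) and the autophagy gene Gabarap (308). At the other end were Tfe3 (5.60), Mitf (3.21), Cln3 (1.77) and Tfeb (0.427). The membrane proteins Npc1 (14.8) and Mcoln1 (10.3) also lay in the lower part. Among other Atg8 family genes in MEF, Gabarapl1 stood at 79.9, Map1lc3b at 40.6, Gabarapl2 at 25.2 and Map1lc3a at 20.0 CPM per kilobase. With CHIR-99021, Ctsd was still highest at 819, Gabarap was at 223, Gabarapl1 at 112 and Gabarapl2 at 33.7. Ctsk, at 266 CPM per kilobase in MEF, was at 140, 120.0 and 109 under carbidopa, LY-364947 and CHIR-99021. The 46 genes together summed to 20795 and 21285 CPM in MEF, 20248 and 19167 under carbidopa, 18580 and 18326 under LY-364947, and 16590 and 16828 under CHIR-99021. The CHIR-99021 libraries had the lowest sums and the MEF libraries the highest.

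A list of 124 further genes of lysosomes and autophagy, all tested, moved in both directions. Of these, 25 (20.2%) were higher and 26 (21%) lower under carbidopa, beside 18% and 19.7% of all genes, and 18 (14.5%) and 24 (19.4%) under LY-364947, beside 13.7% and 17.2%, so both lay near the shares of all genes. With CHIR-99021, 16 (12.9%) were higher and 38 (30.6%) lower, beside 18.7% and 20.1%. Their median log2 fold changes were -0.02, -0.05 and -0.08. Of 10 further lysosomal proteases, 5, 6 and 7 were lower and 1, 0 and 1 higher, with medians of -0.33, -0.46 and -0.72. Of 15 further genes of Atg8 conjugation and cargo receptors, 5, 6 and 5 were higher and 1, 2 and 3 lower, with medians of 0.10, -0.02 and 0.01. Ctss, the cathepsin of antigen-presenting cells and macrophages, had 95.7 and 91.3 CPM in MEF, 11.1 and 9.38 under carbidopa, 7.35 and 7.72 under LY-364947, and 5.93 and 4.87 under CHIR-99021. It fell by 9.12-fold, 12.4-fold and 17.3-fold, the largest called fall of the list that reached 100 normalized counts in the higher group. Cd164, a sialomucin of lysosomes, went from 901 and 947 CPM in MEF to between 391 and 499 CPM in the treated libraries, with log2 fold changes of -0.99, -0.98 and -1.13 (SE 0.12 each).

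Further genes of that list were named for the size of their called change. A change given for 1 compound is from the comparison that named the gene, and does not mean that the others lacked it. Ctsc, the protease that activates granule serine proteases, fell by 0.94 ± 0.11 on the log2 scale under carbidopa, to 27.4 and 24.3 CPM from 51.2 and 48.2 in MEF. Vmp1, a scramblase needed to form autophagosomes, fell by 1.00 ± 0.12 under LY-364947. Per kilobase of exon, Vmp1 stood at 39.4 CPM in MEF, 21.15 under carbidopa, 19.7 under LY-364947 and 26.2 under CHIR-99021. Ctso, a cysteine protease, went from 26.6 and 27.1 CPM in MEF to 6.79 and 9.23 under CHIR-99021 (-1.75 ± 0.16). Atg16l2, a paralog of the Atg16l1 protein of the conjugation complex, rose from 8.70 and 6.97 CPM to 32.3 and 31.1 under carbidopa, 28.6 and 35.2 under LY-364947, and 28.7 and 24.6 under CHIR-99021. The log2 fold changes were 2.02, 2.03 and 1.77 (SE 0.16 each). Tfec, a relative of Tfeb, Tfe3 and Mitf, rose from 3.05 and 4.65 CPM to between 7.86 and 10.7 CPM, with log2 fold changes of 1.27 ± 0.23, 1.10 ± 0.23 and 1.15 ± 0.23. Atg12, the ubiquitin-like protein joined to Atg5, was at 71.7 and 72.9 CPM in MEF and between 134 and 139 under carbidopa and LY-364947, log2 fold changes of 0.89 ± 0.09 and 0.92 ± 0.10. Per kilobase of exon, Atg12 stood at 9.38 CPM in MEF and 13.5 under CHIR-99021. Rragb, a GTPase that brings mTORC1 to the lysosome, rose by 1.22 ± 0.24 on the log2 scale under CHIR-99021, from 2.23 and 2.84 CPM to 5.64 and 6.21.

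Markers of macrophages, cells rich in lysosomes, were also looked up. Of 19 markers, 17 were tested, and 16 were lower under carbidopa, 16 under LY-364947 and 17 under CHIR-99021, beside 19.7%, 17.2% and 20.1% of all genes. Their summed level was 1486 and 1548 CPM in MEF, 466 to 473 under carbidopa, 350 to 360 under LY-364947 and 118 to 126 under CHIR-99021. No marker was at 0 in every library, and the defining marker Adgre1 (F4/80) had 466 and 559 reads in MEF and 18 and 31 under CHIR-99021. The part of this in the falls of Ctss, Ctsk, Asah1 and other lysosomal genes was not tested. In bulk RNA, fewer cells of a type and less RNA per cell cannot be told apart. Of 10 fibroblast markers, 8 were lower and 1, Pdgfra, was higher under each compound, and their sum fell from 34774 and 35112 CPM in MEF to between 8129.6 and 11716 CPM in treated libraries. They include Fn1 and 3 collagen genes, and their part in the scaling factors was not tested.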

How the data were processed

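RNA-seq counts of 8 libraries from MEFs, untreated or treated with carbidopa, CHIR-99021 or LY-364947, were analysed, 2 libraries per group. Per the labels and the methods, the authors used STAR 2.4.2a for mapping to mm10 and featureCounts for counting, and the deposited values are raw counts per gene without normalization. The annotation release and the strand setting are not given in the sources used here, so reads of overlapping or antisense genes cannot be told apart. As the library kit, NEBNext Ultra is given in the methods and SMARTER in the labels. Libraries held 15039566 to 20504338 counts, of which the 46 genes took 1.71% to 2.15%. Reads carry no molecular identifiers, so counting limits cover counting error only.

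Groups and replicate numbers were taken from the sample titles. Each pair of replicates differed by more than sampling noise, so none was a library deposited more than once. The counts were tested with edgeR 4.0.16 in R 4.3.3 (TMM normalization, filterByExpr, quasi-likelihood test, all 8 libraries in 1 fit with group as the only term), with Benjamini-Hochberg adjustment over 15154 genes and a threshold of 0.05. The coefficient of variation between replicates that edgeR terms biological was 11.0% over all groups, and may be technical here. Levels are TMM-scaled CPM. The SE of a log2 fold change is its size divided by the square root of F. Of the 50578 identifiers, 50354 (99.6%) were found in GENCODE M21 (GRCm38, also called mm10), which gave positions, exon lengths and shared words of 75 bases. Promoter sequences are from RefSeq (GRCm38.p6). The fit was tested on simulated data.

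The members and lists were chosen with earlier results of these data known. Tfeb, Tfe3 and Mitf were named, as were the 8 called members with the largest log2 fold change in each comparison with MEF and the 5 in each comparison between compounds. From the 124 further genes, the 3 largest called rises and falls per comparison with MEF were named if the higher group averaged at least 100 normalized counts. Other genes named with values were chosen after their values were seen. Alternatives were DESeq2 1.42.0, RLE size factors, no filter, a minimum of 10 counts in each library, a fit of only the 2 groups compared, the replicate number as a block, and 1 library left out at a time. Library sizes alone were added after seeing the data.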

Additional observations from a re-analysis of the deposited data

How the results depend on the processing

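The direction of no called gene changed under any of the 15 alternatives run for each comparison. Ctsk, Scarb2 and Asah1 were called lower and Gabarapl1 higher than MEF with every compound under all 15. The counts of calls moved more, and the number of all genes called moved too. With library sizes alone, carbidopa gave 17 higher and 4 lower, LY-364947 11 and 5, and CHIR-99021 11 and 10. Beside them stood 36.6% and 12.9%, 27.9% and 12%, and 33.8% and 14.6% of all genes. In a fit of the compared groups alone, carbidopa against MEF gave 6 higher and 6 lower, LY-364947 9 and 21, and CHIR-99021 8 and 24, while CHIR-99021 against carbidopa gave 0 and 0 and against LY-364947 3 and 7. In the same order, 12.7% and 16%, 22.4% and 24.9%, 26% and 26.7%, 2.79% and 4.34%, and 12.5% and 12.9% of all genes were higher and lower. All genes called against MEF then numbered 4209, 6946 and 7606, beside 5717, 4694 and 5878 in the main fit. DESeq2 gave 2 higher with CHIR-99021 against MEF and 4 lower against LY-364947, beside 13.9% and 7.74% of all genes. Without a filter, 2 genes were higher with CHIR-99021 than with carbidopa and 4 were lower than with LY-364947, beside 5.2% and 5.28% of all genes. The cause of these moves was not tested. The same replicate numbers did not pair the libraries (correlations of the replicate differences between groups from -0.161 to 0.128). With a replicate block the calls were 7 higher and 11 lower for carbidopa, 3 and 11 for LY-364947, 3 and 18 for CHIR-99021, 1 and 7 for CHIR-99021 against carbidopa, 2 and 2 against LY-364947, and 0 and 0 for LY-364947 against carbidopa. In the same order, 17% and 19.1%, 12.9% and 16.3%, 18.2% and 19.5%, 6.06% and 7.2%, 5.86% and 7.16%, and 0.0132% and 0% of all genes were called. Leaving out 1 library gave 2 to 11 higher and 5 to 16 lower for carbidopa, 1 to 8 and 6 to 21 for LY-364947, 2 to 8 and 9 to 22 for CHIR-99021, 0 to 4 and 0 to 18 for CHIR-99021 against carbidopa, 0 to 5 and 0 to 10 against LY-364947, and 0 to 3 and 0 to 12 for LY-364947 against carbidopa. The lone library left in a group was then assumed to vary like the other groups. The lowest counts of calls came without a MEF library for carbidopa, and without a MEF or LY-364947 library for LY-364947. For the falls with CHIR-99021 they came without a CHIR-99021 library. The highest counts of all 6 comparisons came without a carbidopa library. Counts over all genes were lowest and highest without a library of the same groups. With 2 libraries per group and a fitted variation of 11.0% between replicates, small changes and those of rare genes such as Tfeb were not detectable.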
